A study of Mus musculus with 6 samples.

Results

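Axon guidance ligands and receptors are secreted or membrane proteins that steer growing axons and migrating cells by attraction and repulsion. The members examined here are the ephrins and Eph receptors, the semaphorins with their plexin and neuropilin receptors, the Slit ligands and Robo receptors, and the netrins with Dcc, Neo1 and the Unc5 receptors. They were chosen by gene name, and 67 such genes had a probe on the array, of 20021 named genes in all. Of these, 64 could be tested among 14906 genes. Epha6, Plxnb3 and Unc5d were not well above background on any array and were not tested. Unc50 (log2 difference -0.28) and Unc5cl (-0.03) share the first letters of the Unc5 receptors but are other genes, and they were set aside.

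RNA came from mouse heads at embryonic day 9.5, dissected with the first branchial arch, the tissue that forms the jaws. The 3 wild type samples were compared with 3 samples from Arid3b-null embryos, which lack a DNA-binding protein of the AT-rich interaction domain family. Each sample pooled 4 embryos and was hybridised to 1 one-colour Agilent array. The labels name no allele or strain, so only the phenotype Arid3b-null is known, and nothing says whether pools of a group came from separate litters. The p-values therefore measure the spread between these pools.

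Eph receptors are tyrosine kinases that bind ephrins on neighbouring cells, and because ephrins are themselves membrane-bound, both cells can receive a signal. Semaphorins signal through plexins. Secreted class 3 semaphorins mostly need a neuropilin as a co-receptor, and in the head they guide cranial nerve axons and neural crest streams. Slits repel axons through Robo receptors, and netrins attract through Dcc or repel through Unc5. Many of these genes also act outside the nervous system, in vessels, crest and mesenchyme.

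Values are log2 signal relative to the 75th percentile of the same array, so a value of 0 is the signal of a fairly bright probe. Differences are null minus wild type (n = 3 arrays in each group) ± limma's standard error, and a gene was called at a Benjamini-Hochberg adjusted p under 0.05 over all genes tested. The number of arrays limits the precision. A probe's level is not set against that of another probe.

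On the 6 arrays 67.9% to 70.3% of spots were well above background. Across genes, which are not independent replicates, null arrays correlated with each other at 0.992 to 0.993 and wild type arrays at 0.977 to 0.986. Without wild type replicate 3 the number of genes called was 5199 in place of 3506. The brightest Arid3b probe was 1.98, 2.26 and 3.09 on wild type and 1.27, 1.06 and 1.44 on null arrays, a fall by 1.19 ± 0.29 (limma adjusted p of 0.0265). The other 2 Arid3b probes fell by 2.33 ± 0.16, to 19.9% of wild type, and by 1.37 ± 0.30, to 38.7% (adjusted p of 7.59e-04 and 0.0224 in limma on single probes). The labels do not place the deletion, so it is unknown whether any of these probes lies inside it. The 2 arrays of a replicate number shared a slide, wild type in position 1 and null in position 2 throughout. Genotype and position on the slide cannot be told apart. Marker lists of the tissue were counted beside all genes tested, of which 23.5% were called, 12.3% higher and 11.2% lower. Of 16 neuronal markers 6 fell (10 at an unadjusted p under 0.05) and none rose (0 at that p), among those that fell the RNA-binding gene Elavl3 (-1.27 ± 0.16). Their summed signal, in units of the 75th percentile, ran from 24.7 to 33.2 on wild type and 19.2 to 24.0 on null arrays. Of 10 neural progenitor markers 4 fell, Nes (-0.93 ± 0.14) and Fabp7 (-1.56 ± 0.21) among them, with a summed signal of 74.5 to 87.7 on wild type and 53.5 to 60.8 on null arrays. Of 12 crest and mesenchyme markers 2 rose and 1 fell (23.1 to 26.3 on wild type and 25.7 to 27.3 on null arrays), and of 12 endothelial markers 1 rose, Sox17 (14.0 to 18.9 on wild type and 15 to 16.4 on null arrays). Of 7 blood genes 1 fell (345 to 538 on wild type and 298 to 555 on null arrays), and none of 8 epithelial genes was called by limma (2 higher at an unadjusted p under 0.05; 21.7 to 53.5 on wild type and 38.9 to 40.3 on null arrays). Of 10 head and arch markers 3 fell, namely Dlx1, Dlx2 and Barx1, and Otx2 rose. At an unadjusted p under 0.05 in limma 5 were lower and 2 higher, and the list's median was -0.37. Their summed signal (24.7 to 29.3 on wild type and 29.4 to 33.9 on null arrays) was mostly that of Otx2, the brightest of them. Otx2 (0.57 ± 0.16, adjusted p of 0.0401) lost its call under 7 of 16 alternatives (0.0510 to 0.135). Only 6 of 16 trunk Hox genes could be tested, with a summed signal of 0.0746 to 0.180 on wild type and 0.216 to 0.273 on null arrays. Of these Hoxb6 (-0.27), Hoxa7 (-0.16) and Hoxa9 (-0.27) were not called. Hoxb5, Hoxb7 and Hoxb8 were called higher, but they entered the test only through the null arrays. They were well above background on 0, 0 and 2 wild type arrays. Neither their count nor the summed signal, which includes them, supports anything. With normexp Hoxb5 was at 0.31 and Hoxb7 at 0.06 and neither was called (adjusted p of 0.199 and 0.853), and without null replicate 1 none of the 3 was called by limma (0.0671, 0.0594 and 0.0647). Another 6, namely Hoxa5, Hoxc6, Hoxc8, Hoxc9, Hoxd9 and Hoxc10, were not well above background on any array. The part of these lists in the members' values was not tested, and in these bulk samples fewer cells of a type and less RNA per cell cannot be told apart.

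Of the 64 tested members, 13 were higher and 4 lower in null heads, a share of 26.6%. Across all genes tested 23.5% were called, 12.3% higher and 11.2% lower, so the members were called about as often as other genes. Of the members 20.3% were called higher and 6.25% lower. The members called higher were Efna1, Efna5, Epha1, Epha8, Sema3a, Sema3b, Sema3d, Sema3g, Sema6b, Nrp2, Plxna4, Slit1 and Slit3, and those called lower were Epha3, Sema4b, Robo3 and Ntn4. Ntn4, counted among the lower members and ligands, passed the filter only through the wild type arrays. With only probes well above background on all arrays, 14 members were higher and 3 lower. The median difference of the members was 0.24 and that of all genes -0.04; within slides 1, 2 and 3 the members' medians were 0.33, 0.28 and 0.07. Of the 17 called members 8 differed by at least 2-fold, 5 higher and 3 lower. The arrays of the 2 groups did not overlap in 28 members, or 43.8%, against 42.4% of all genes.

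Ligands and receptors were called in both directions. Of 33 tested ligands 9 rose and 2 fell (33.3% called), with a median of 0.26. Of 31 receptors 4 rose and 2 fell (19.4% called), with a median of 0.22. Of all genes 23.5% were called. No difference between these shares was tested, because the genes of a list are not replicates. With slide as a block, 18 members were called higher and 4 lower, all 17 above among them, and the added ones were Epha7, Nrp1, Robo1, Sema4f and Sema4g; in that fit 24.7% of all genes were called. The count called higher was 7 without wild type replicate 2, 23 without wild type replicate 3, and 3, 5 and 8 without null replicates 1, 2 and 3. The count called lower was 3 without any 1 wild type array and 1 without any 1 null array. Without wild type replicates 1, 2 and 3, 18.8%, 15.6% and 40.6% of members were called, beside 14.3%, 14.6% and 34.9% of all genes. Without null replicates 1, 2 and 3 the shares were 6.25%, 9.38% and 14.1% of members, beside 10.2%, 12.5% and 12.5% of all genes. Only Epha3, Nrp2, Sema3a and Sema3b were called under every alternative.

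The A class of ephrins and Eph receptors was split. Among ephrin-A ligands, which sit on the membrane by a lipid anchor, Efna1 and Efna5 rose and the other 3 tested members were not called. Among EphA receptors, which bind them, Epha1 and Epha8 rose, Epha3 fell, and 5 were not called. The shares called were 40% of the ligands and 37.5% of the receptors, beside 23.5% of all genes.

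Epha3, a receptor for ephrin-A ligands that is known from motor axons and heart cushions, showed the largest fall of all members. It was -2.41, -2.38 and -2.28 on the wild type arrays and -3.87, -3.92 and -3.78 on the null arrays, which lie far apart with little spread in either group. Epha3 was 2.83-fold lower (log2 difference -1.50 ± 0.12, adjusted p of 9.16e-04), and it fell by 1.45, 1.55 and 1.51 within slides 1, 2 and 3. With normexp background correction the difference was -0.95.

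Epha8, a receptor known from midbrain axons, moved the other way. Its signal was -0.29, -0.20 and -0.24 on wild type and 0.52, 0.44 and 0.40 on null arrays, again with no overlap. Epha8 was 1.62-fold higher (log2 difference 0.70 ± 0.12, adjusted p of 0.00860). Epha1, an Eph receptor of epithelia, was -0.86, -0.71 and -1.31 on wild type and -0.13, -0.08 and -0.19 on null arrays, where the third wild type array was the lowest. Epha1 was 1.77-fold higher (log2 difference 0.83 ± 0.18, adjusted p of 0.0187).

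Efna5, a repellent of retinal and other axons, was 2.37, 2.48 and 2.25 on wild type and 3.11, 3.07 and 2.92 on null arrays. All null arrays exceeded all wild type arrays, and Efna5 was 1.59-fold higher (log2 difference 0.67 ± 0.13, adjusted p of 0.0140). Efna1, an ephrin best known from vessels, was -0.09, -0.16 and -0.40 on wild type and 0.50, 0.68 and 0.32 on null arrays. Here too the groups lay apart, and Efna1 was 1.64-fold higher (log2 difference 0.72 ± 0.16, adjusted p of 0.0188).

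Of the members not called, Efna2 (-0.31 ± 0.15) and Efna4 (-0.33 ± 0.26) had differences below 0. Efna3 was at 0.16 ± 0.15 on its brightest probe and at -0.16 ± 0.56 on its other one. Epha5, an EphA receptor of the forebrain, was at -0.21 ± 0.21 on its brightest probe and at -0.95 ± 0.27 on its other one (adjusted p of 0.0514 in the fit of single probes). Epha7, known from closure of the neural folds, was at log2 difference 0.59 ± 0.21, adjusted p of 0.0885; its other 2 probes gave 0.65 ± 0.27 and 1.10 ± 0.17, and the last was called (adjusted p of 0.00775 in limma on single probes). Epha2 was at log2 difference 0.71 ± 0.23, adjusted p of 0.0655, Epha4 at 0.12 and Epha10 at 0.39. Epha10 was dim, well above background on only 2 wild type arrays. It passed the filter only through the null arrays, where it was higher. The call of Epha8 was lost without null replicate 1 (0.0516), that of Epha1 without null replicate 1, 2 or 3 (0.0731, 0.0658 and 0.0592), that of Efna1 without null replicate 1 or 2 (0.0748 and 0.0701) and that of Efna5 likewise (0.0703 and 0.0568), with adjusted p in parentheses. Epha7 was called with slide as a block (0.0425).

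In the B class the ligands cross the membrane, and the pairs act in hindbrain boundaries, crest streams and vessels. None of its 8 tested members was called by limma, beside 23.5% of all genes. With so few genes this count is a description, and no difference from the A class was tested. The 3 ephrin-B ligands were at 0.12 ± 0.16 for Efnb1, 0.11 ± 0.18 for Efnb2 and 0.39 ± 0.24 for Efnb3. The 5 EphB receptors ranged from -0.14 for Ephb3 to 0.35 for Ephb2, with Ephb4, the venous receptor, at -0.08 ± 0.24. On their brightest probes all 8 had an unadjusted p above 0.05, the smallest being 0.110 for Ephb2. Dimmer probes gave 0.67 ± 0.25 for Efnb2, 0.35 ± 0.39 for Ephb4 and -0.09 ± 0.19 for Ephb6. None of these was called (adjusted p of 0.103, 0.588 and 0.797 in limma on single probes). Efnb3 was called without wild type replicate 3 (log2 0.63, adjusted p of 0.0241) and with array weights (0.0179). Ephb2 was also called with array weights (0.0263).

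**Figure D1:**
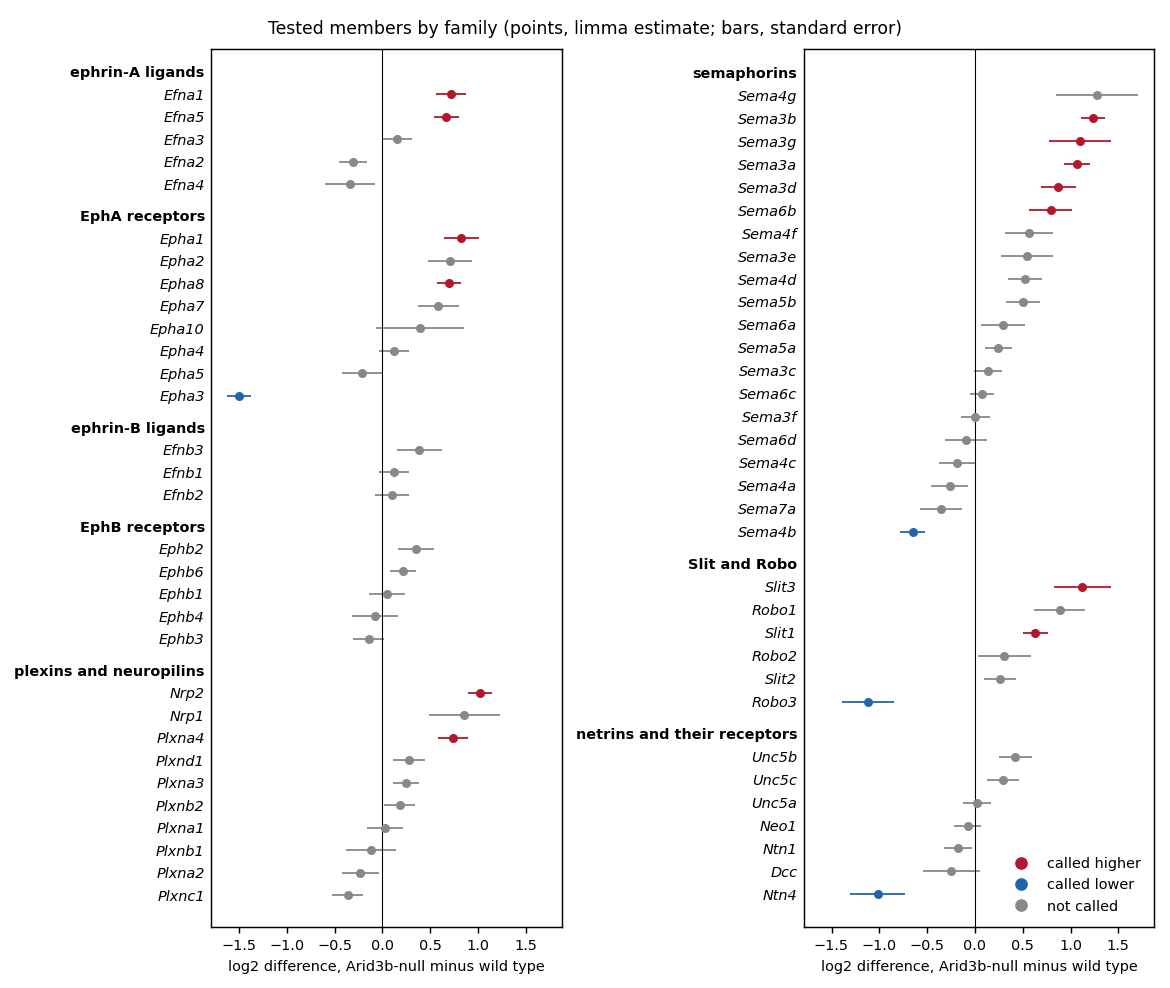
Log2 differences of the 64 tested members by family, null minus wild type, with limma standard errors as bars; red points were called higher, blue points lower and grey points were not called. Within the EphA receptors, semaphorins and the Slit and Robo family both called higher and called lower members occur, from -1.50 for Epha3 to 1.24 for Sema3b, and no ephrin-B ligand or EphB receptor is coloured.

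Semaphorins, the family with the most tested members, had 5 higher and 1 lower of 20, a share of 30% beside 23.5% of all genes. The secreted class 3, whose members repel axons and crest cells, had 4 of 7 members higher and none lower (0 lower at an unadjusted p under 0.05 in limma), with a median of 0.87 (0.86, 1.07 and 0.67 within slides 1, 2 and 3). Class 4, which spans the membrane, had 1 of 6 lower and a median of 0.17. Classes 5 to 7 together had 1 of 7 higher and a median of 0.25. These classes are compared by their values alone, and no test between them was made.

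Sema3b was -0.46, -0.60 and -0.65 on wild type and 0.69, 0.73 and 0.58 on null arrays. The gap between the groups was far wider than the spread within either. Sema3b was 2.36-fold higher (log2 difference 1.24 ± 0.13, adjusted p of 0.00180). Sema3a, the class 3 repellent of sensory and motor axons, was -1.23, -1.38 and -1.43 on wild type and -0.34, -0.13 and -0.37 on null arrays. It was 2.10-fold higher (log2 difference 1.07 ± 0.14, adjusted p of 0.00336), while its dimmer probe gave 0.39 ± 0.20 and was not called (adjusted p of 0.220 in limma on single probes).

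Sema3d, known from crest and cardiac development, was -3.90, -4.26 and -3.89 on wild type and -3.04, -2.95 and -3.44 on null arrays. The third null array was the lowest of its group and still above every wild type array. Sema3d was 1.83-fold higher (log2 difference 0.87 ± 0.19, adjusted p of 0.0175). Sema3g, known from arterial endothelium, was -4.58, -4.66 and -3.59 on wild type and -3.02, -3.59 and -2.92 on null arrays. The third wild type array nearly reached the second null array, and Sema3g was 2.15-fold higher (log2 difference 1.10 ± 0.32, adjusted p of 0.0482). Of the 12 endothelial markers only Sox17 was called, and it rose (log2 difference 1.23 ± 0.14, adjusted p of 0.00239). At an unadjusted p under 0.05 in limma 2 were higher and 1 lower. The lower one was Cdh5 (log2 difference -0.63 ± 0.20, adjusted p of 0.0616). The median of the list was 0.14, and its summed signal overlapped between the groups. The part of these markers in the Sema3g value was not tested. The other class 3 members were at 0.55 ± 0.27 for Sema3e, 0.14 ± 0.15 for Sema3c and 0.01 ± 0.15 for Sema3f, none of them called.

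Sema4b was the only semaphorin called lower. It was -0.66, -0.84 and -0.63 on wild type and -1.29, -1.38 and -1.43 on null arrays, with each group within a narrow range. Sema4b was 1.57-fold lower (log2 difference -0.65 ± 0.13, adjusted p of 0.0137). Sema6b, a transmembrane ligand of A plexins, was -2.20, -2.11 and -1.41 on wild type and -1.19, -1.17 and -0.99 on null arrays. The third wild type array lay close to the null arrays, and Sema6b was 1.73-fold higher (log2 difference 0.79 ± 0.23, adjusted p of 0.0449).

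Sema4g had the largest positive difference of all 64 tested members and was not called. Its signal was -2.18, -2.13 and -0.59 on wild type and -0.34, -0.68 and -0.04 on null arrays, so the third wild type array lay within the range of the null arrays. The estimate was log2 difference 1.28 ± 0.43, adjusted p of 0.0742. A block for slide lowered this adjusted p to 0.0257. Sema4f, at log2 difference 0.56 ± 0.25, was also called with the block (0.0320). Sema4d (log2 difference 0.53 ± 0.17, adjusted p of 0.0705) and Sema5b (log2 difference 0.51 ± 0.18, adjusted p of 0.0816) came near the threshold. The remaining ones ranged from -0.36 for Sema7a to 0.29 for Sema6a, with the bright Sema4c at -0.18 ± 0.19.

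Several of these calls were lost in fits without 1 array, with adjusted p in parentheses. Fewer genes were called in most of these fits. Over all genes the count fell from 3506 to 1516, 1868 and 1861 without null replicates 1, 2 and 3. It was 2137, 2174 and 5199 without wild type replicates 1, 2 and 3. Sema4b lost its call without null replicate 1, 2 or 3 (0.0531, 0.0547 and 0.0518), and Sema3d without wild type replicate 2 (0.0542) and null replicates 1 and 2 (0.0747 and 0.0641). Sema3g kept its call, of the 6 fits without an array, only without wild type replicate 3, and ran from 0.0574 to 0.155 in the other 5. Sema6b likewise kept it only without wild type replicate 3, with 0.102 to 0.141 in the others. With normexp Sema3d was at log2 0.32 (0.172) and Sema3g at 0.45 (0.0816), and neither was called; Sema3g was not called after quantile normalization either (0.0538), and without the filter on dim probes neither Sema3g (0.0966) nor Sema6b (0.0911) was called.

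Plexins and neuropilins, the receptors of semaphorins, had 2 of 10 tested members higher and none lower (0 lower at an unadjusted p under 0.05 in limma). This is a share of 20%, below the 23.5% of all genes. Nrp2, the neuropilin that binds Sema3b, Sema3c and Sema3f among others, was 2.74, 2.64 and 2.61 on wild type and 3.70, 3.75 and 3.61 on null arrays. Each group kept within a narrow range, and Nrp2 was 2.03-fold higher (log2 difference 1.02 ± 0.12, adjusted p of 0.00287). Its dimmer probe gave 0.74 ± 0.24 (adjusted p of 0.0734 in limma on single probes). Nrp1, which binds Sema3a and also vascular endothelial growth factor, was -3.45, -3.08 and -2.06 on wild type and -2.0, -2.37 and -1.65 on null arrays. Here the groups overlapped, and Nrp1 was at log2 difference 0.86 ± 0.37, adjusted p of 0.138, called in 3 of 16 alternatives: slide as a block (0.0481), array weights (0.00786) and without wild type replicate 3 (0.0101), each an adjusted p. The difference between both neuropilins was not tested.

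Plxna4, a partner of neuropilins in the class 3 semaphorin receptor, was -0.92, -0.87 and -0.70 on wild type and 0.14, -0.30 and -0.13 on null arrays. The 3 null arrays lay above the 3 wild type arrays, and Plxna4 was 1.67-fold higher (log2 difference 0.74 ± 0.16, adjusted p of 0.0180). Its dimmer probe, well above background on 1 wild type and 3 null arrays, gave 1.66 ± 0.29 (adjusted p of 0.0113 in limma on single probes). This dimmer probe entered the test only through the null arrays, where it was higher, so its call supports nothing. Plxna4 itself was no longer called when wild type replicate 1 or 2 (0.0578 and 0.0580) or null replicate 1 or 3 (0.0741 and 0.0584) was left out, with adjusted p in parentheses. The other A plexins were at 0.03 for Plxna1, -0.23 for Plxna2 and 0.24 for Plxna3. Plxnd1, a receptor of the vasculature, was at 0.28 ± 0.17, Plxnb2 at 0.18 ± 0.17, Plxnb1 at -0.12 and Plxnc1 at -0.36. The dimmer Plxnc1 probe had the opposite sign, at 0.13 ± 0.25 (adjusted p of 0.751 in limma on single probes).

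The promoters of the called class 3 semaphorins and of Nrp2 are shown because these genes were higher in null heads. The sequences come from RefSeq on GRCm38.p6, and each holds the 250 bases before the start of the gene, 5′ to 3′ on the strand of the gene. Sema3b has no entry in the table. The windows are chr5:13396534-13396783 on the plus strand for Sema3a, chr5:12382916-12383165 on the plus strand for Sema3d, chr14:31217623-31217872 on the plus strand for Sema3g and chr1:62703067-62703316 on the plus strand for Nrp2. Capitals mark matches on either strand to ACGTG or GCGTG, spellings of the core of the hypoxia response element, or to ATTAAA, an AT-rich word searched because Arid3b is of a family that binds AT-rich DNA.
Sema3a: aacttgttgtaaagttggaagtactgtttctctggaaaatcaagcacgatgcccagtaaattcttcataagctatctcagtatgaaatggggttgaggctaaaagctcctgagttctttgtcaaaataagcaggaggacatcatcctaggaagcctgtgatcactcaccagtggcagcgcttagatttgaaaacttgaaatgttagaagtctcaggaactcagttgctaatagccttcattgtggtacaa
Sema3d: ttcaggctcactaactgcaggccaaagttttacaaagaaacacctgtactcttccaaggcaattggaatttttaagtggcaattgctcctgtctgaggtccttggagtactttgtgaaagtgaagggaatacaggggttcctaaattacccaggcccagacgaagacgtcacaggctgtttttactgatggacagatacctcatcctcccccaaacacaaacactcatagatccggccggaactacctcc
Sema3g: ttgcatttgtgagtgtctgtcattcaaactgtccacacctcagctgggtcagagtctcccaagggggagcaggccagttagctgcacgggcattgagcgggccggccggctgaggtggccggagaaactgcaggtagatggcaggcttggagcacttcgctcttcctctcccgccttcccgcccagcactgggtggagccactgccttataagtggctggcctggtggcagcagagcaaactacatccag
Nrp2: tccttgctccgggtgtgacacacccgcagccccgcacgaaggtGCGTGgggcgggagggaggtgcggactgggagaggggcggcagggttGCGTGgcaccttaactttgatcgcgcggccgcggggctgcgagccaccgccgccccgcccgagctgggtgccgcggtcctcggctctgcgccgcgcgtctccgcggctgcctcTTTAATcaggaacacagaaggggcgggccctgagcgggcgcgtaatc

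Base composition of the 4 windows differed. Nrp2 was 72.4% G or C with 32 CpG pairs, and Sema3a 40.8% with 2, Sema3d 46.8% with 4 and Sema3g 60.4% with 8. The Nrp2 window held 2 GCGTG matches and 1 ATTAAA match, while these letters do not occur in the windows of the 3 semaphorins. Of 17 promoters of 14 called members, 4 held ACGTG (23.5%, against 20.5% of the promoters of all tested genes), 5 held GCGTG (29.4% against 41.9%) and 1 held ATTAAA (5.88% against 7.87%). Among all promoters of the table the shares were 16.6%, 28.2% and 12.7%. A match is a run of letters, not a bound site, and promoters of 1 gene can overlap.

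In the Slit and Robo family of 6 tested members, 2 ligands rose and 1 receptor fell (50% called, beside 23.5% of all genes). Slit1, a ligand of neural tissue, was 1.28, 1.09 and 1.23 on wild type and 1.85, 1.95 and 1.70 on null arrays. The groups lay apart, and Slit1 was 1.55-fold higher (log2 difference 0.63 ± 0.13, adjusted p of 0.0171). Slit3, a ligand of mesenchyme as well as of the floor plate, was -1.50, -1.40 and -0.50 on wild type and 0.05, -0.32 and 0.25 on null arrays. The third wild type array was the highest of its group, just under the second null array, and Slit3 was 2.18-fold higher (log2 difference 1.12 ± 0.30, adjusted p of 0.0340). Slit2, the ligand of the ventral midline, was at 0.26 ± 0.17 and was not called.

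Robo3, the receptor that lets hindbrain and spinal axons cross the midline, was -3.63, -3.89 and -2.84 on wild type and -4.45, -4.76 and -4.51 on null arrays. The third wild type array was the highest, and every null array lay below every wild type array. Robo3 was 2.17-fold lower (log2 difference -1.12 ± 0.27, adjusted p of 0.0268), and at -0.60 with normexp. Neuronal markers were lower on the same arrays, as given above, and their part in this fall was not tested. Robo1, a general Slit receptor, was -0.63, -0.72 and -1.53 on wild type and -0.09, 0.17 and -0.31 on null arrays. Its groups did not overlap, and at log2 difference 0.89 ± 0.27, adjusted p of 0.0515 it just missed the threshold. Robo1 was called with slide as a block (0.0226) and under another 6 of the 16 alternatives, at 0.0137 to 0.0493. Robo2 was at 0.31 ± 0.28, and the third wild type array lay above all 3 null arrays.

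Leaving out single arrays ended these calls too, with adjusted p in parentheses. Slit1 lost its call without wild type replicate 2 (0.0650) and null replicates 1 and 2 (0.0749 and 0.0692). Slit3 kept it only without wild type replicate 3 among the 6 arrays (0.0532 to 0.119 in the other 5) and lost it without the filter on dim probes (0.0729). Robo3 lost its call without wild type replicate 1 (0.0539), null replicates 1, 2 and 3 (0.0749, 0.0850 and 0.0812) and the filter on dim probes (0.0601).

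Netrins and their receptors had 1 of 7 tested members lower and none higher (1 higher at an unadjusted p under 0.05 in limma). This is a share of 14.3%, below the 23.5% of all genes. Ntn4, a netrin of basement membranes, was dim, at -5.73, -5.24 and -4.86 on wild type and -6.15, -6.76 and -5.96 on null arrays, and only 2 of the 3 null arrays were well above background. Ntn4 thus passed the filter only through the wild type arrays, where it was higher, so its call supports nothing. Its groups did not overlap, and Ntn4 was 2.02-fold lower (log2 difference -1.02 ± 0.29, adjusted p of 0.0435). This was the least stable call. Only 5 of its 15 alternatives gave one, and it was lost with normexp (log2 -0.36, 0.126), quantile normalization (0.110), in the deposited value table (0.0980), without the filter on dim probes (0.0888), with an intensity trend (0.0598), and without wild type replicate 2 or 3 (0.0982 and 0.0623) or null replicate 1, 2 or 3 (0.104, 0.115 and 0.0690), with adjusted p in parentheses. Ntn1, the netrin of the floor plate, was at -0.18 ± 0.14 and its other probe at 0.40 ± 0.35.

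The probes of Dcc, the attractive netrin receptor, disagreed. The brightest, which stands for the gene, was 4.26, 4.47 and 4.90 on wild type and 4.59, 4.63 and 3.66 on null arrays. These groups overlapped, at log2 difference -0.25 ± 0.30, adjusted p of 0.594. The other 2 probes gave 1.46 ± 0.37 and 1.59 ± 0.35 and were called higher (adjusted p of 0.0357 and 0.0241 in limma on single probes), the last well above background on only 1 wild type array. That last probe passed the filter only through the null arrays, where it was higher, so its call supports nothing. The mean of the 3 probes gave 0.93 (adjusted p of 0.0560), so no direction is given for Dcc. Neo1, a receptor related to Dcc, was at -0.07 ± 0.14. The repulsive receptors Unc5a, Unc5b and Unc5c were at 0.02, 0.42 ± 0.17 and 0.30; Unc5b was called without wild type replicate 3 (0.0334) and with array weights (0.0209), the adjusted p in parentheses.

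Across families the medians were 0.47 for Slit and Robo, 0.49 for EphA receptors, 0.40 for semaphorins, 0.21 for plexins and neuropilins, 0.16 for ephrin-A ligands, 0.12 for ephrin-B ligands, 0.05 for EphB receptors and -0.07 for netrins and their receptors. Within slides 1, 2 and 3 they were 0.56, 0.67 and 0.31 for Slit and Robo and 0.77, 0.59 and 0.25 for EphA receptors. Semaphorins had 0.40, 0.29 and 0.30. These 3 families stayed above 0 on every slide, as did ephrin-A ligands, EphB receptors and plexins with neuropilins. The median of ephrin-B ligands was -0.23 and that of netrins -0.12 on slide 3, and both were above 0 on slides 1 and 2. Families hold 3 to 20 tested genes, and their medians carry no test. The median of EphA receptors includes Epha10, which passed the filter only through the null arrays, where it was higher.

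**Figure D2:**
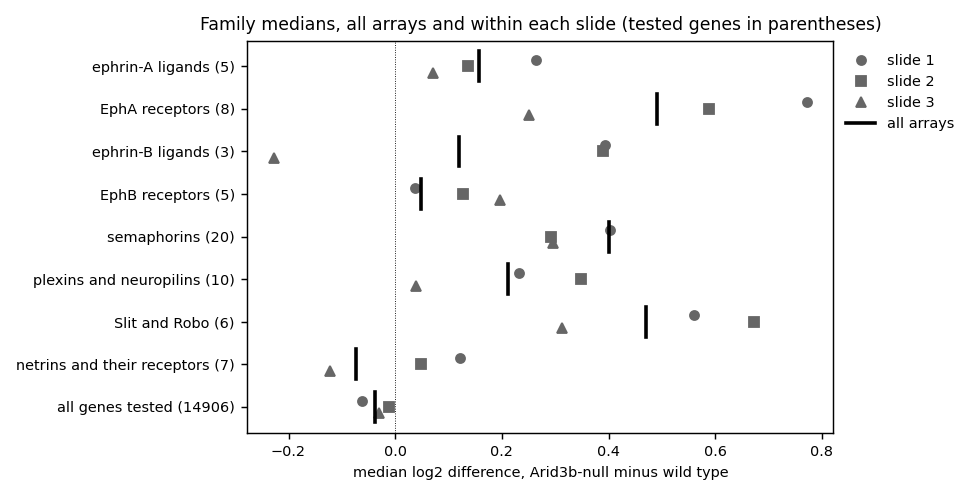
Median log2 difference of each family, null minus wild type, over all arrays (black line) and within slides 1, 2 and 3 (symbols), with the number of tested genes in parentheses and all 14906 genes in the last row. The lines run from -0.07 for netrins and their receptors to 0.49 for EphA receptors, and all genes lie at -0.04.

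Other genes of the pathway came from a list of further ligands, receptors and effectors. Of 82 tested, 21 were higher and 9 lower, a share of 36.6%, beside 23.5% of all genes; the list was chosen with results of these data known and this share is a description. Of 14 other ligands 5 rose and 3 fell. Of 24 other receptors and co-receptors 10 rose and none fell (1 lower at an unadjusted p under 0.05 in limma), with a median of 0.59. Of 44 effectors inside the cell 6 rose and 6 fell, with a median of -0.06.

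Rgma, a repellent that acts through Neo1, was -1.59, -1.38 and -1.31 on wild type and 1.43, 1.14 and 0.69 on null arrays, with a wide gap between the groups. It was 5.70-fold higher (log2 difference 2.51 ± 0.21, adjusted p of 9.20e-04). Vegfa, the growth factor bound by Nrp1 and a textbook target of low oxygen, was 3.12-fold higher (log2 difference 1.64 ± 0.13, adjusted p of 9.03e-04). Shh, which guides midline axons, fell by 0.65 ± 0.17 (adjusted p of 0.0312), as did the chemokine Cxcl12 by 0.54 ± 0.12 (0.0225) and the netrin Ntn3 by 0.77 ± 0.16 (0.0160). The call was lost under 9 of 16 alternatives for Cxcl12, 5 for Shh and 2 for Ntn3.

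Of the receptors, Mst1r, a Met-related kinase, was 2.60-fold higher (log2 difference 1.38 ± 0.14, adjusted p of 0.00156), and the adhesion receptor Nrcam, a partner of neuropilins, was 1.99-fold higher (log2 difference 0.99 ± 0.15, adjusted p of 0.00567). Of the effectors, Srgap1 (log2 difference 1.73 ± 0.23) and Srgap2 (log2 difference 1.65 ± 0.25), which relay Slit signals from Robo to small GTPases, rose. Dpysl4, a collapsin response mediator downstream of semaphorins, was 2.63-fold lower (log2 difference -1.40 ± 0.14, adjusted p of 0.00156). Farp2, which relays Sema3a signals, and the kinase Pak3 fell by 0.88 ± 0.15 and 1.07 ± 0.20; Pak3 lost its call without null replicate 3 (adjusted p of 0.0501). Mst1r was at 0.50 with normexp and Srgap2 at 0.83 as the mean of its probes, both still called.

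**Figure D3:**
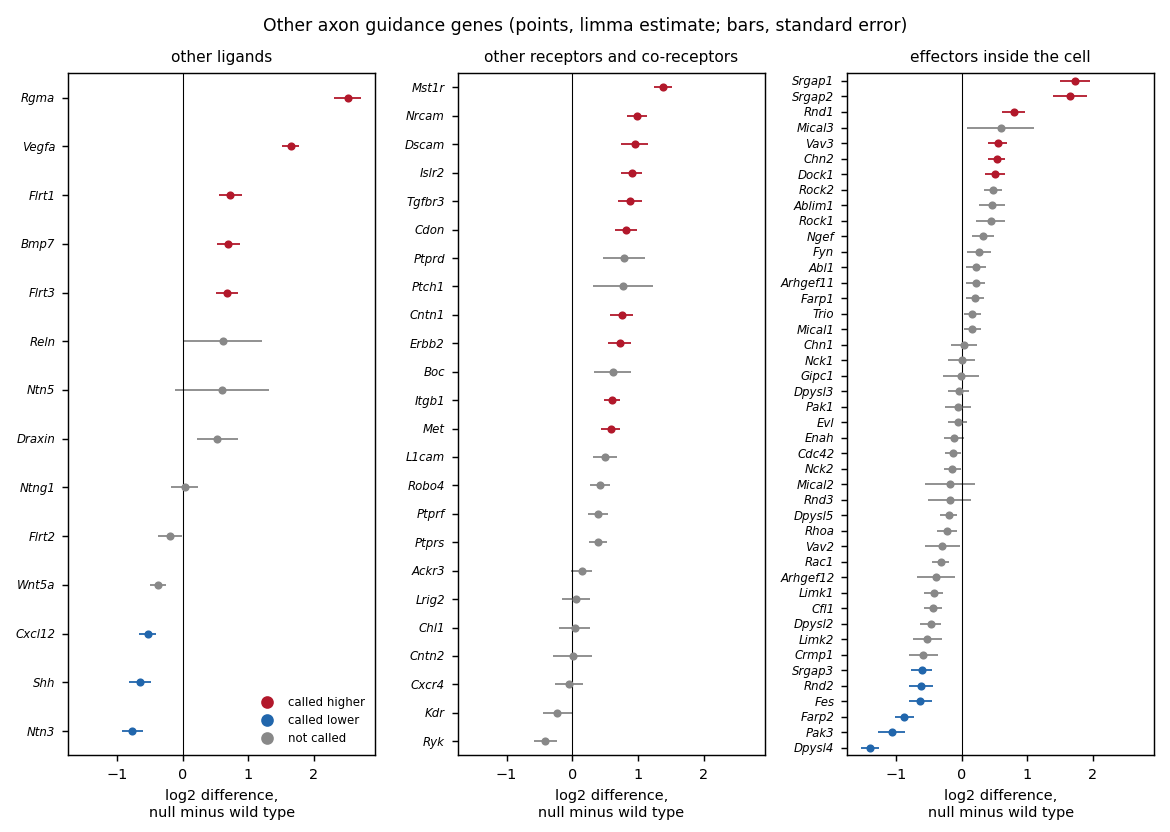
Log2 differences of 82 further axon guidance genes, null minus wild type, with limma standard errors as bars, in 3 panels for ligands, receptors and effectors; red points were called higher, blue points lower and grey points were not called. In the panel of receptors 10 points are red and none is blue, and Rgma lies farthest right among the ligands at 2.51.

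**Figure D4:**
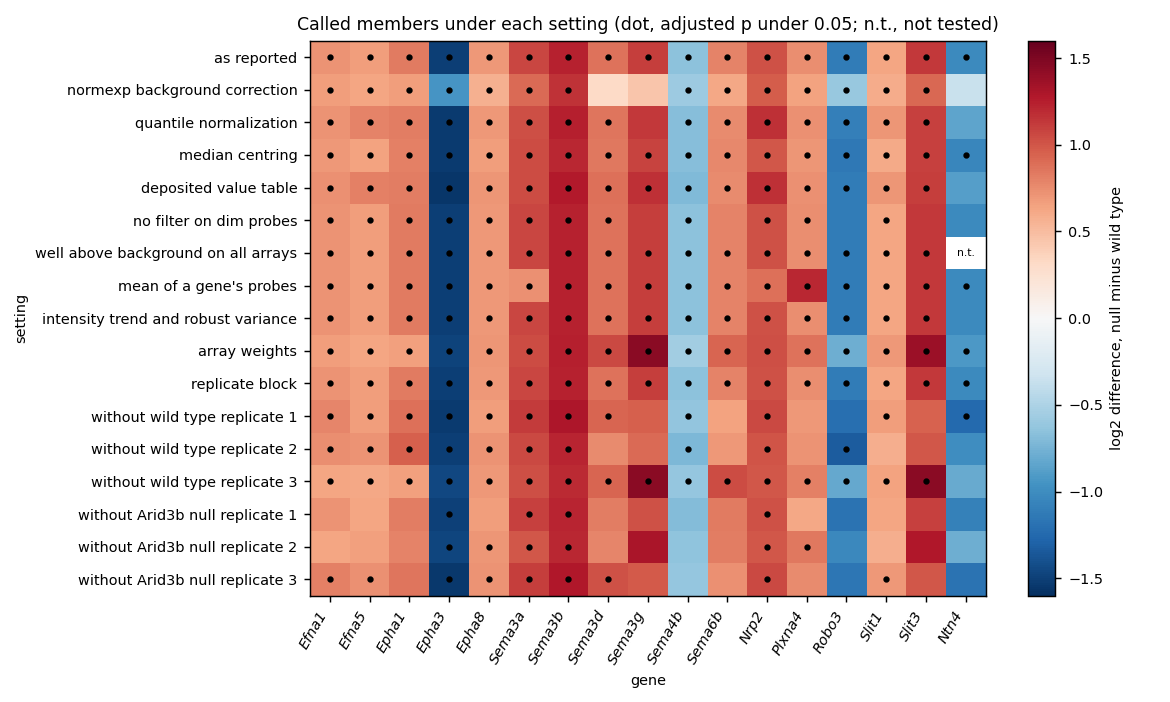
Log2 difference of the 17 called members as reported and under each of the 16 alternatives, coloured from blue (lower in null) to red (higher), with a dot where the adjusted p was under 0.05. Every cell keeps the sign of the top row, and only the columns of Epha3, Sema3a, Sema3b and Nrp2 hold a dot in every row.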

How the data were processed

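Per the file headers, the 6 one-colour arrays were read in Feature Extraction 10.7.3.1 (Agilent), and the deposited scanner files give each spot's processed intensity, its raw median and background intensity, and its flags. The authors' log2 value table has 24181 rows, of which 24158 matched a probe. Its columns have medians of 6.76 to 6.77 and correlate at 0.999 or more with the same array's log2 signal, and how they were scaled stays unknown.

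Values are log2 of the processed intensity minus the 75th percentile of the array. Control spots and 84 to 156 outlier spots per array were left out. Of 39429 probes 26424 had 1 symbol through RefSeq accessions (a table of GRCm38), 0 several and 13005 none. A probe was kept if all 3 arrays of either group had it well above background and at least 5 arrays measured it. Each gene was represented by its brightest probe. Tests used limma 3.58.1 in R 4.3.3 with Benjamini-Hochberg adjustment over 14906 genes, and the steps were checked on simulated data. All called members and the 2 brightest others per family were named by rule, and further members after their values were seen. Members and lists were chosen with earlier results of these data known. Replicate numbers share a slide, so slide and replicate block are 1 model. Alternatives were normexp, planned on mean and run on median intensities (offset 50), quantile normalization, median centring, the deposited table, other filters, probe means, a variance trend, array weights, the block and leaving out each array. Promoters were found for 57 of 67 members.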

Additional observations from a re-analysis of the deposited data

How the results depend on the processing

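All 17 called members kept their direction under the 16 alternatives, Ntn4 under the 15 that could be run, and 11 kept their call under all 10 that use every array. Array weights gave 6685 genes, 27 members higher and 7 lower, and 33 and 14 further pathway genes higher and lower. No filter on dim probes gave 2270 genes, 2 members lower, and 12 and 4 pathway genes. Leaving out 1 array gave 1516 to 5199 genes, 3 to 23 members higher, 1 to 3 lower, 7 to 30 pathway genes higher and 3 to 10 lower. Family medians then ran from 0.08 to 0.24 (ephrin-A), 0.32 to 0.68 (EphA), 0.04 to 0.27 (ephrin-B), -0.053 to 0.18 (EphB), 0.30 to 0.41 (semaphorins), 0.16 to 0.29 (plexins), 0.39 to 0.62 (Slit and Robo) and -0.16 to 0.02 (netrins). Probe means moved ephrin-A ligands to -0.00054 and netrins to 0.11, array weights ephrin-A ligands to 0.28, the deposited table EphB receptors to 0.27 and semaphorins to 0.52, and normexp semaphorins to 0.22. Arid3b was lower in every fit, from -1.42 to -0.87 with 1 array left out, and was not called without the filter (log2 -1.19, adjusted p of 0.0599) or without null replicate 1, 2 or 3 (0.0861, 0.0838 and 0.0690). Of the 64 tested members 14 changed sign under some alternative, none of them a called one. Those named by rule were Ephb3 (quantile 0.022), Ephb4 (quantile 0.0046, deposited values 0.32, probe means 0.13, weights 0.11, -0.27 to 0.18 with 1 array left out), Sema4c (quantile 0.0027, deposited values 0.014), Sema3f (normexp -0.0069, median centring -0.021, -0.083 to 0.099 with 1 array left out) and Dcc (probe means 0.93, -0.42 to 0.072 with 1 array left out). The other 9 were Efna3, Epha10, Ephb1, Neo1, Ntn1, Plxna1, Plxnb1, Sema6d and Unc5a, with Epha10 running from -0.11 to 1.11. The cause was not tested. With the replicate block 3689 genes were called; same-numbered arrays deviated with correlations of -0.20, 0.15 and 0.42, so the numbers share a slide but were not treated as pairs.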
